A study of Mus musculus with 4 samples.

Results

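Respiratory complex I was examined gene by gene in single-nucleus RNA sequencing (snRNA-seq) of neonatal mouse cardiomyocytes. Its members were chosen by name: every gene of the deposited matrix whose symbol begins with Nduf, then a, b, c, s or v, then a number and at most a further letter and digit. The rule found 37 of 22574 genes. It left out the assembly factors (Ndufaf genes), and it missed the subunit genes Ndufab1 and Ndufb1-ps, whose symbols have another form.

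Complex I (NADH:ubiquinone oxidoreductase) is the largest enzyme of the mitochondrial respiratory chain. It takes electrons from NADH, passes them along iron-sulfur clusters to ubiquinone and pumps protons across the inner membrane. It is built from an N module that binds NADH, a Q module that binds ubiquinone, and a proximal and a distal membrane arm that move protons. Most of its subunits are encoded in the nucleus and the hydrophobic pump subunits in the mitochondrial genome. In the heart, this enzyme feeds much of the electron flow behind ATP synthesis, and its genes are known to increase in activity as cardiomyocytes mature after birth.

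The 4 libraries were labelled Sham-WT, Sham-KO, MI-WT and MI-KO, with 1 library for each. All mice carried loxP-flanked alleles of Nrf1 (Nrf1fl/fl) in a C57BL/6 background. KO mice also carried aMHC-Cre, whose recombinase is expressed from a cardiac myosin heavy chain promoter and so works in cardiomyocytes, and WT mice did not. Surgery was done at postnatal day 3: the left anterior descending artery was tied to cause myocardial infarction (MI), and Sham mice had the operation without the tie. Tissue below the ligation plane was collected the day after. Each library was made from a pool of 4 to 6 hearts, so that animals within a library could not be told apart. The question was which cardiomyocyte populations differ when Nrf1 is deleted before injury. Here Nrf1 is the factor encoded by Nfe2l1, which activates proteasome and antioxidant genes. It is a different protein from nuclear respiratory factor 1, encoded by the gene with the symbol Nrf1, which is a known activator of respiratory chain genes.

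The files held 8585 nuclei that the authors had kept as cardiomyocytes, in the populations CM1 (which also holds CM3), CM2, CM4 and CM5. Libraries held 1406 to 3328 nuclei and 4984625 to 9106522 unique molecular identifier counts (UMIs, counts of captured RNA molecules), and 9 barcodes occurred in more than 1 library. Cardiomyocyte markers were high in CM1 and CM4 of every library. Acta2, the study's marker of the immature CM4 population, was higher in CM4 than in CM1 of the same library in all 4, at 399.5 to 983.5 against 136.3 to 297.6 CPM (UMIs of the gene per 1000000 UMIs). Over all nuclei the deleted gene did not track the labels: Nfe2l1 had 62.2 CPM in the library labelled Sham-WT and 50.5 in Sham-KO, but 47.4 in MI-WT and 55.3 in MI-KO. In CM1 it had 61.4 CPM in Sham-WT and 53.3 in Sham-KO. After MI it was higher in KO there, at 57.7 (51.4 to 64.5) against 44.1 (38.9 to 49.9) in WT, and these intervals did not overlap. In CM4 Nfe2l1 was lower in KO in both pairs, at 55.6 against 41.1 CPM in Sham and 61.7 against 32.0 after MI, but on 11 to 30 UMIs per library and with overlapping intervals. The 3′ tags counted may lie outside the deleted part, so this check could not settle the labels, and WT and KO below mean the libraries labelled so.

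With 1 library per group there was no replicate check, no test and no p-value. Each ratio below is the log2 of one library's CPM over another's, from UMIs summed over the nuclei of a population. The range in parentheses is its exact 95% interval, which covers counting error only. A member entered a comparison with 20 or more UMIs over both libraries, and it is said to be past the fold where its ratio reached 1.5-fold, which is 0.585 on the log2 scale. The share of all genes past that same fold is given beside the members' count as the background. In these nuclei, fewer transcripts per nucleus and a larger share of other RNA cannot be told apart. The comparisons share libraries: each library stands in 1 comparison of genotypes and 1 of surgeries.

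Sequences upstream of the start sites are shown because a binding site there is the form in which the regulators named above would be met. RefSeq (GRCm38.p6) gave the 250 bases before the start site for 32 of the 37 members. Each motif was searched on both strands as a string of letters, with N for any base. The motif of nuclear respiratory factor 1, which is shown in capitals in the windows printed next, occurred in 6 of these 32 members (18.8%), against 4.23% of 27025 genes with the same length of sequence. The core of the element bound by CNC-sMAF dimers, the family of Nfe2l1, TGACNNNGC, occurred in 5 members (15.6%), against 11.5% of genes. The ETS/GABP motif CCGGAAG occurred in 3 members (9.38%), against 7.83% of genes. The estrogen-related receptor site AAGGTCA also occurred in 3 members (9.38%), against 4.7% of genes. The YY1 motif occurred in 0 members, against 0.359% of genes. Where motifs overlap, a base could count for more than 1 of them. A match is a description of letters and not a bound site.

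The members with the nuclear respiratory factor 1 motif were Ndufa5, Ndufa8, Ndufa11, Ndufb4, Ndufs5 and Ndufs6. The windows of Ndufa11, the outermost of Ndufb4 and that of Ndufs5 lie outside the annotated span of the member itself. Whether they lie within another gene was not checked, and Vmac overlaps the Ndufa11 gene. These windows are printed 5′ to 3′ in the direction of the member's gene, with the motif in capitals:
Ndufa11, chr17:56717677-56717736, plus strand, motif ending 50 bases before the start site: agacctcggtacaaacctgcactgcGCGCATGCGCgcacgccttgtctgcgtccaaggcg
Ndufb4, chr16:37654525-37654584, minus strand, motif ending 181 bases before the start site: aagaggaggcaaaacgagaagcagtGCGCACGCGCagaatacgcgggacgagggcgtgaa
Ndufs5, chr4:123718250-123718309, minus strand, motif ending 88 bases before the start site: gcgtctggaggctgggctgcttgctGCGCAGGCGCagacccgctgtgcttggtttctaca

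The members with the CNC-sMAF core were Ndufa1, Ndufa7, Ndufa9, Ndufs5 and Ndufv2. Their windows are shown with the core in capitals, as matches of letters only. Binding of the deleted factor or its family to them was not tested. In Ndufa1 and Ndufv2 the core lies on the opposite strand and so reads in reverse:
Ndufa1, chrX:37191310-37191368, minus strand, core ending 96 bases before the start site: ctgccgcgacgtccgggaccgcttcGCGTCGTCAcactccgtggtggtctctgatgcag
Ndufa7, chr17:33824509-33824567, plus strand, core ending 29 bases before the start site: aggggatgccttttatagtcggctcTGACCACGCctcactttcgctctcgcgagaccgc
Ndufa9, chr6:126849145-126849197, minus strand, core ending 19 bases before the start site: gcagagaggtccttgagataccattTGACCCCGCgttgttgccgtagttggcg
Ndufs5, chr4:123718381-123718436, minus strand, core ending 219 bases before the start site: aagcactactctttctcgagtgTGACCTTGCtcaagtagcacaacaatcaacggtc
Ndufv2, chr17:66101594-66101652, minus strand, core ending 59 bases before the start site: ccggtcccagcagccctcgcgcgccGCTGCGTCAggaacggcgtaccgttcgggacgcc

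In CM1, which held 1098 to 2619 nuclei per library, the summed complex I level was 8419 CPM in Sham-WT, 14743 in Sham-KO, 6502 in MI-WT and 7542 in MI-KO. Sham-KO stood apart at the top and MI-WT was the lowest. This order of the 4 libraries held for 30 of the 37 members taken singly. Sham-KO was the highest library for 36 members, and MI-WT the lowest for 34. In CM4, which held 118 to 351 nuclei, the summed level was 25063 CPM in Sham-WT, 23631 in Sham-KO, 13981 in MI-WT and 20901 in MI-KO. There MI-WT stood apart at the bottom, and it was the lowest library for 36 of the 37 members. The exception was Ndufs5, whose lowest library was MI-KO, with 6 UMIs.

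**Figure D1:**
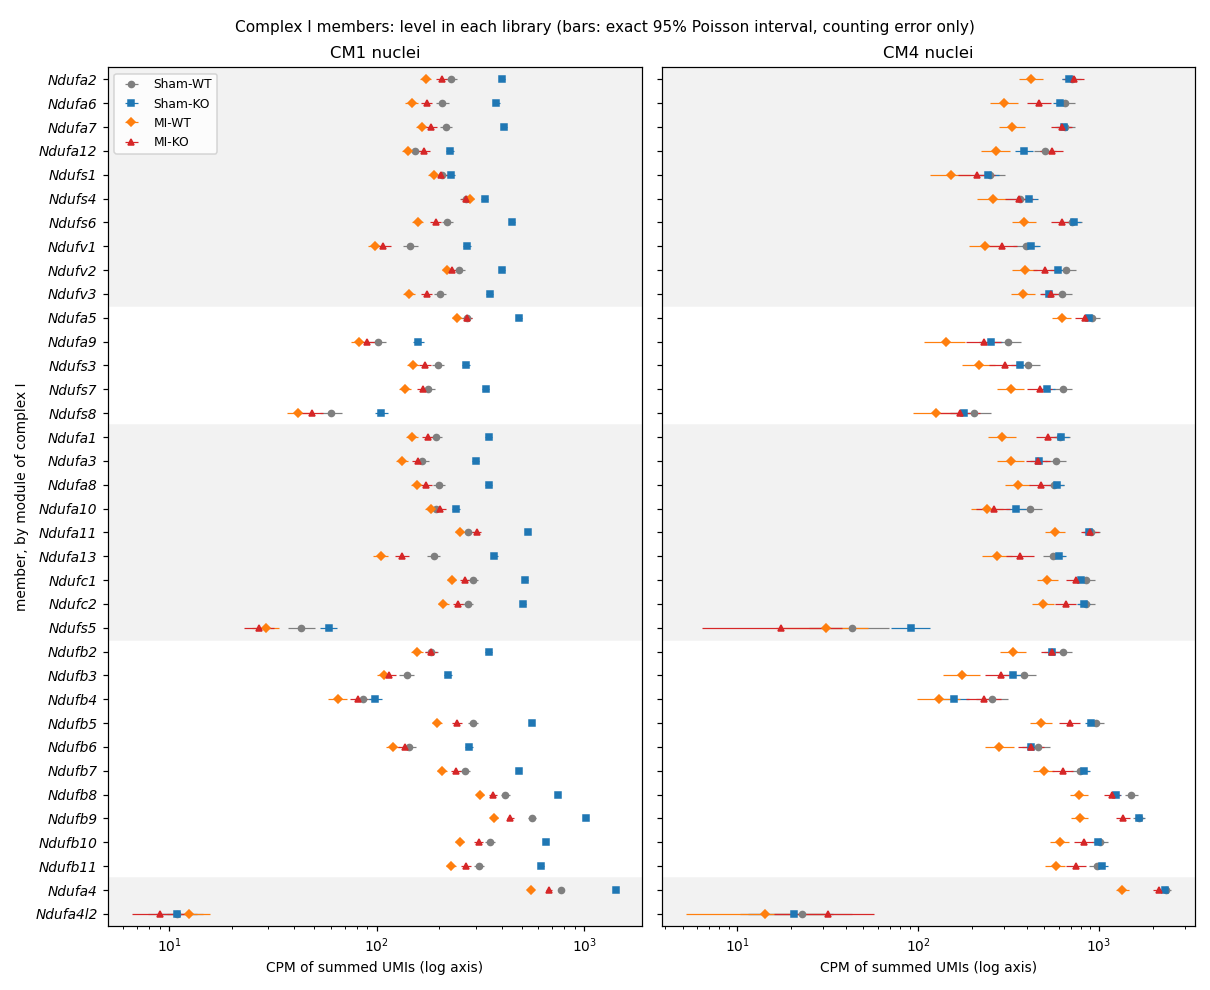
Level of 36 of the 37 complex I members in CPM of summed UMIs (horizontal log axis) in CM1 (left) and CM4 (right); each point is 1 library, bars are exact 95% Poisson intervals for counting error only, and rows are grouped by module with shading. In CM1, Sham-KO lies to the right of the other libraries for all members shown but 1, and in CM4, MI-WT is the leftmost for all but 1.

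Genotypes were compared first in CM1 nuclei of Sham hearts. The Sham-KO over Sham-WT ratio of the summed level was 0.81 (0.79 to 0.83), the median over members was 0.84, and all 37 members were above 0. Of these, 29 were past the fold upward, against 7.85% of 12916 genes, and 0 were past it downward, against 6.64%. The median over all genes was -0.12. The highest ratios were those of Ndufs6 (1.03, 0.92 to 1.14), an accessory subunit of the N module that carries zinc, Ndufb11 (0.997, 0.91 to 1.09) of the distal arm, encoded on the X chromosome, and Ndufa13 (0.97, 0.86 to 1.09) of the proximal arm, also known as GRIM-19. The lowest were those of Ndufa4l2 (0.01, -0.54 to 0.57), Ndufs1 (0.14, 0.02 to 0.26) and Ndufb4 (0.19, 0.01 to 0.38).

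The modules gave similar values. Past the fold were 7 of 10 members of the N module (median 0.80), 5 of 6 of the Q module (0.79), 7 of 9 of the proximal arm (0.85) and 9 of 10 of the distal arm (0.88), against 7.85% of 12916 genes. Ndufs6 had 219.0 CPM in Sham-WT, 446.7 in Sham-KO, 157.1 in MI-WT and 192.2 in MI-KO, so that Sham-KO was above all the others. Ndufs1, the subunit with the most iron-sulfur clusters, had 205.2, 226.6, 188.3 and 204.4 CPM in the same order, and its 4 libraries lay close together.

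Sham-KO nuclei of CM1 also differed in depth. Their median was 2632 UMIs, against 3749 in Sham-WT, and the median share of UMIs from the mitochondrial genome was 8.78% against 6.13%. Within bands of equal depth the ratio of the summed level was 0.66 (0.60 to 0.71) for nuclei of 1500 to 2500 UMIs, 0.61 (0.57 to 0.64) for 2500 to 3500 and 0.54 (0.51 to 0.57) for 3500 to 5000. Within the 4 bands of mitochondrial share from 3 to 12% it was 0.55 to 0.67. The count past the fold was 22 of 37 in the middle band of depth, against 8.52% of genes in the same nuclei, and 24 in nuclei of 5 to 7% mitochondrial UMIs, against 8.18%. The ratio was thus smaller within each of these bands than over all nuclei, and its direction was the same. It was 0.81 over all nuclei under 13% mitochondrial UMIs.

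The same comparison was made in CM1 after MI. The MI-KO over MI-WT ratio of the summed level was 0.21 (0.19 to 0.23) and the median over members was 0.23, with 34 of 37 members above 0. No member reached the fold in either direction, against 4.54% of 12910 genes upward and 3.99% downward, and the median over all genes was 0.02. The intervals of 28 members lay wholly above 0, and none lay wholly below. The highest ratios were those of Ndufa13 (0.34, 0.18 to 0.50), Ndufb4 (0.33, 0.13 to 0.53) and Ndufb5 (0.32, 0.20 to 0.43). The 3 members below 0 were Ndufa4l2 (-0.46, -1.02 to 0.09), Ndufs5 (-0.11, -0.44 to 0.22) and Ndufs4 (-0.06, -0.17 to 0.04), and each interval included 0. The median depth of the 2 libraries was close here, at 4042 and 4043.5 UMIs, with 5.15% and 5.06% from the mitochondrial genome. Within bands of mitochondrial share the ratio was 0.17 (0.13 to 0.20) at 3 to 5%, 0.21 at 5 to 7%, 0.28 at 7 to 9% and 0.47 (0.40 to 0.54) at 9 to 12%, so that it was larger in the bands of higher share. Within bands of depth it was 0.30 at 1500 to 2500 UMIs, 0.23 at 2500 to 3500 and 0.19 at 3500 to 5000.

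MI was then compared with Sham in CM1, within each genotype. The MI-WT over Sham-WT ratio of the summed level was -0.37 (-0.39 to -0.35), and the MI-KO over Sham-KO ratio was -0.97 (-0.98 to -0.95). In the WT pair 2 members were past the fold downward, against 14.6% of 12738 genes, and 0 upward, against 10.4%. These were Ndufa13 (-0.85, -1.0 to -0.69) and Ndufb9 (-0.61, -0.69 to -0.52). The 2 members above 0 were Ndufa4l2 (0.20, -0.36 to 0.77) and Ndufs4 (0.07, -0.04 to 0.18). In the KO pair 31 of 37 members were past the fold downward, against 12.8% of 13152 genes, 0 were past it upward, against 12.1%, and all 37 were below 0. The medians over members were -0.39 for WT and -0.996 for KO, and over all genes -0.07 and 0.03. Since Sham-KO enters this second ratio as well as the Sham ratio of genotypes, its high level is counted in both.

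Ndufa13 had the lowest ratio after MI in both genotypes, with 187.6 CPM in Sham-WT, 367.9 in Sham-KO, 104.5 in MI-WT and 132.1 in MI-KO. Both MI libraries lay below both Sham libraries. Its gene overlaps Tssk6 and Yjefn3, 1 of them on the same strand, so that its counts are uncertain. Ndufv1, which binds NADH and flavin, came second in the KO pair (-1.34, -1.47 to -1.202), with 145.0, 271.6, 98.1 and 107.5 CPM in the same order. At the other end of the KO pair stood Ndufs1 (-0.15, -0.26 to -0.04), Ndufa10 (-0.25, -0.36 to -0.14) and Ndufa4l2 (-0.27, -0.82 to 0.26).

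**Figure D2:**
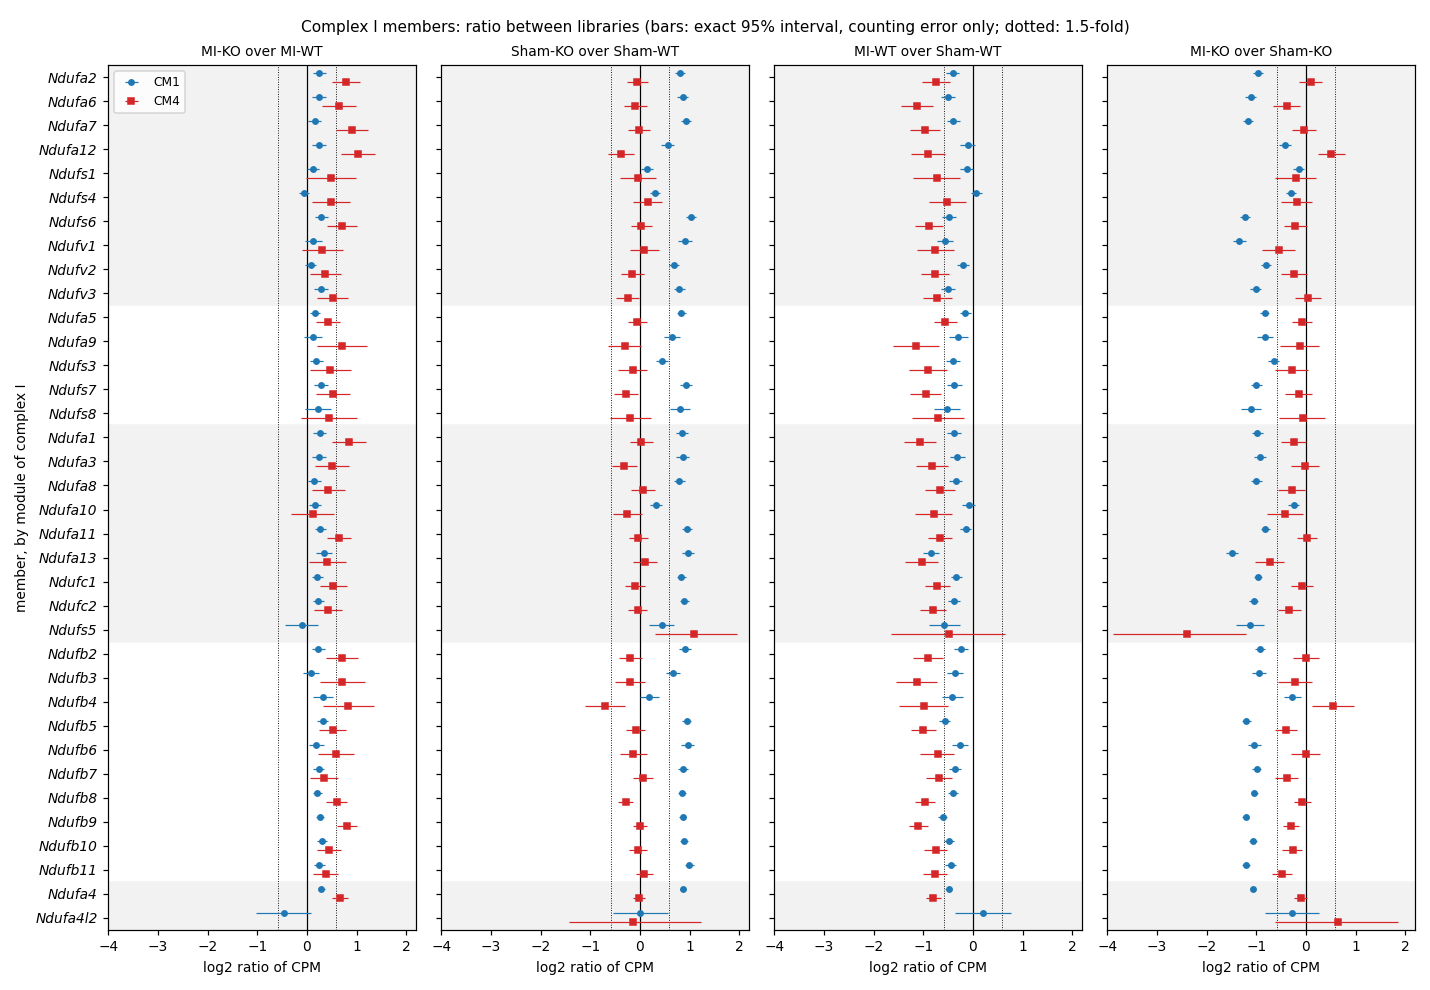
log2 ratio of CPM of 36 of the 37 members, where they entered (rows, grouped by module), in 4 comparisons (panels), for CM1 (blue circles) and CM4 (red squares); bars are exact 95% intervals for counting error only and dotted lines mark 1.5-fold. In the Sham comparison of genotypes the CM1 points reach 1.03 while most CM4 points lie near 0, and in the MI-WT over Sham-WT comparison the CM4 points lie further below 0 than most CM1 points.

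CM4 after MI was the population in which the study compared genotypes. The MI-KO over MI-WT ratio of the summed level was 0.58 (0.53 to 0.63), the median over members was 0.53, and all 35 members that entered were above 0. Of these, 14 were past the fold upward, against 12.3% of 5686 genes, and 0 downward, against 19.3%, with a median over all genes of -0.08. Ndufs5 and Ndufa4l2 had too few UMIs to enter. The highest ratios were those of Ndufa12 (1.02, 0.68 to 1.37), a small N module subunit, Ndufa7 (0.91, 0.59 to 1.22) and Ndufa1 (0.84, 0.51 to 1.19), an X-linked subunit of the proximal arm. The lowest were those of Ndufa10 (0.11, -0.31 to 0.54), Ndufv1 (0.31, -0.11 to 0.72) and Ndufb7 (0.35, 0.07 to 0.63). By module, 5 of 10 members of the N module, 1 of 6 of the Q module, 2 of 8 of the proximal arm and 5 of 10 of the distal arm were past the fold.

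This CM4 ratio changed with the depth of the nuclei. It was 0.08 (-0.09 to 0.24) in nuclei of 1000 to 1500 UMIs, from 18 nuclei of MI-KO and 67 of MI-WT. In nuclei of 1500 to 2500 UMIs it was 0.39 (0.30 to 0.49), from 46 nuclei of MI-KO and 67 of MI-WT. Both values were smaller than that over all nuclei. No band was taken of nuclei with more UMIs. The interval of the shallow band included 0 and lay wholly below that of the deeper band and that over all nuclei. The median depth in CM4 was 2394 UMIs in MI-KO and 1853 in MI-WT. The Spearman correlation between a nucleus' complex I share and its depth was 0.43 over the 118 nuclei of MI-KO and -0.25 over the 192 of MI-WT. This is a description only, since both measures hold the same UMIs. Within bands of mitochondrial share the ratio was 0.67 (0.57 to 0.76) at 6 to 9% and 0.47 (0.39 to 0.55) at 9 to 12%.

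In CM4 nuclei of Sham hearts, the members lay near 0. The Sham-KO over Sham-WT ratio of the summed level was -0.09 (-0.12 to -0.05) and the median over the 37 members that entered was -0.09, against 0.06 over all genes. Only Ndufs5 was past the fold upward (1.09, 0.31 to 1.96), against 19.9% of 6811 genes, and only Ndufb4 downward (-0.70, -1.10 to -0.30), against 10.8%. Ndufs5 rested on 17 UMIs in Sham-WT. Ndufa12 was also low (-0.38, -0.65 to -0.11).

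MI was compared with Sham in CM4 as well. The MI-WT over Sham-WT ratio of the summed level was -0.84 (-0.89 to -0.80), the median over members was -0.80, and all 36 members that entered were below 0. Of these, 33 were past the fold downward, against 16.0% of 5777 genes, and 0 upward, against 28.5%. The median over all genes was 0.16, and relative to it 36 members were past the fold. The share of all genes past the fold relative to that median was not computed. The lowest ratios were those of Ndufa9 (-1.14, -1.61 to -0.68), Ndufb3 (-1.13, -1.55 to -0.72) and Ndufa6 (-1.13, -1.44 to -0.81). The highest were Ndufs4 (-0.51, -0.89 to -0.15), Ndufa5 (-0.55, -0.79 to -0.32) and Ndufa8 (-0.66, -0.97 to -0.36) among members with 50 or more UMIs.

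In the KO pair the MI-KO over Sham-KO ratio in CM4 was -0.18 (-0.22 to -0.14), with a median over members of -0.18. Past the fold downward were 2 of 37 members, Ndufs5 (-2.39, -3.89 to -1.196) and Ndufa13 (-0.72, -1.02 to -0.43), against 19.7% of 6744 genes. Past it upward was 1, Ndufa4l2 (0.64), with few UMIs, against 17.7%. Ndufb4 (0.55, 0.12 to 0.98) and Ndufa12 (0.51, 0.24 to 0.78) stood highest among the members with 50 or more UMIs. The MI over Sham ratio was larger in size in KO than in WT in CM1, and larger in WT than in KO in CM4, and neither difference was tested. The CM4 difference was not seen in nuclei of 1000 to 1500 UMIs, where the ratio was -0.49 (-0.59 to -0.39) in WT and -0.47 (-0.63 to -0.32) in KO. In nuclei of 1500 to 2500 UMIs it was -0.82 and -0.36.

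Core subunits that hold the flavin and the iron-sulfur clusters or border them include Ndufv1, Ndufv2, Ndufs1, Ndufs3, Ndufs7 and Ndufs8. In CM1, Ndufs7, which carries the iron-sulfur cluster nearest to ubiquinone, had 177.3 CPM in Sham-WT, 335.2 in Sham-KO, 137.1 in MI-WT and 167.4 in MI-KO. It was high in Sham-KO and lay below Sham-WT in both MI libraries.

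For the other core subunits named, in CM1, the Sham-KO over Sham-WT ratio was 0.91 for Ndufv1, 0.68 for Ndufv2, 0.14 for Ndufs1, 0.44 for Ndufs3 and 0.80 for Ndufs8, and the MI-KO over MI-WT ratio was 0.13, 0.08, 0.12, 0.19 and 0.22. In CM4 the MI-KO over MI-WT ratio was 0.31, 0.37, 0.48, 0.47 and 0.45 in that order. None of these 5 reached the fold there, against 12.3% of 5686 genes upward.

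The 3 members with the most UMIs were Ndufa4, Ndufb9 and Ndufb8, which together gave 18.9 to 22.5% of complex I UMIs in CM1 and CM4 of the 4 libraries. Ndufa4 had 772.0 CPM in Sham-WT, 1414 in Sham-KO, 550.9 in MI-WT and 672.3 in MI-KO in CM1, and 2349, 2311, 1348 and 2147 in CM4. In CM1 Sham-KO stood above the rest, and in CM4 MI-WT stood below it. Its product, first described in complex I, is now counted as a subunit of complex IV. Its paralog Ndufa4l2, a gene known to respond to low oxygen, had 9.02 to 12.4 CPM in CM1, and its libraries overlapped within counting error. Ndufb9 had 558.8, 1016, 366.7 and 439.7 CPM in CM1 in the same order.

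A pair of subunit genes that the rule missed gave similar values. Ndufab1, the mitochondrial acyl carrier protein, had a Sham-KO over Sham-WT ratio of 0.76 in CM1 and an MI-KO over MI-WT ratio of 0.66 in CM4. Ndufb1-ps, whose symbol marks a pseudogene although it stands for the distal arm subunit, had 0.77 and 0.36.

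Single nuclei showed the same order of libraries as the sums. Every nucleus had at least 1 complex I UMI. In CM1, the median nucleus had 0.825% of its UMIs on complex I in Sham-WT (quartiles 0.671 and 1.02), 1.497% in Sham-KO (1.24 and 1.81), 0.639% in MI-WT (0.527 and 0.787) and 0.729% in MI-KO (0.590 and 0.921). The lower quartile of Sham-KO thus lay above the upper quartile of the other libraries. In CM4 the medians were 2.41%, 2.34%, 1.38% and 1.96% in that order. The 10 nuclei with the most complex I UMIs held 0.977 to 2.73% of these UMIs in CM1 and 7.94 to 22.8% in CM4.

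**Figure D3:**
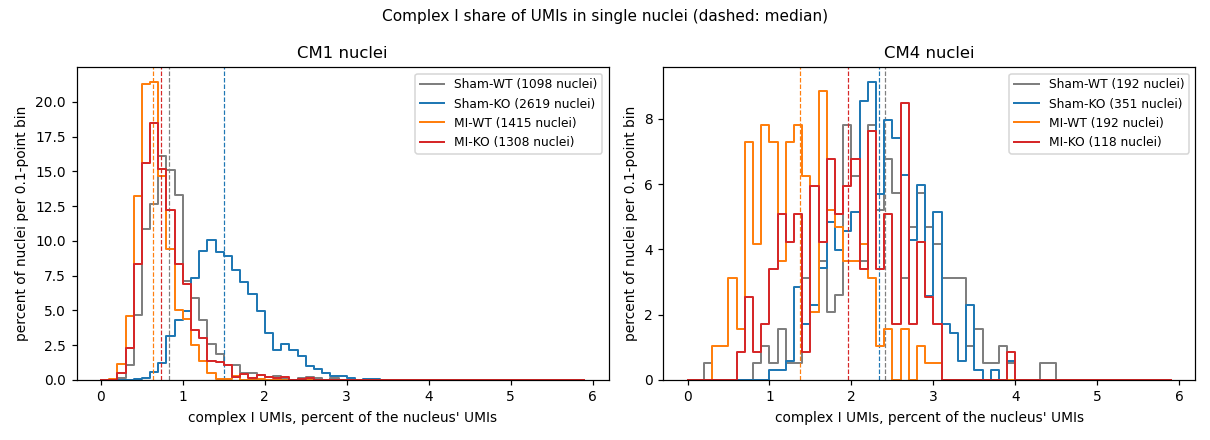
Distribution over nuclei of the share of UMIs on complex I (horizontal axis, percent; vertical axis, percent of nuclei per bin of 0.1 points) in CM1 (left) and CM4 (right) for each library; dashed lines are medians. The Sham-KO distribution of CM1 is shifted to the right, with a median of 1.497%, and the MI-WT distribution of CM4 to the left, with a median of 1.38%.

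CM4 nuclei had the higher complex I level in every library. The CM4 over CM1 ratio of the summed level was 1.57 in Sham-WT, 0.68 in Sham-KO, 1.11 in MI-WT and 1.47 in MI-KO. This is a description, because the populations were built from the same genes. CM4 nuclei were also shallower, with medians of 1716 to 2394 UMIs against 2632 to 4043.5 in CM1, and had 9.47 to 14.6% of UMIs from the mitochondrial genome against 5.06 to 8.78%. CM2 and CM5 had the same order of libraries as CM1. Their summed levels were 7821 and 9446 CPM in Sham-WT, 12523 and 15315 in Sham-KO, 5621 and 5568 in MI-WT and 7382 and 7011 in MI-KO. CM2 rested on as few as 27 nuclei in a library. The fall after MI in WT was not particular to CM4. Over members with genes of 20 kb or less, the median MI-WT over Sham-WT ratio was -0.51 in CM2 and -0.76 in CM5. It was -0.405 in CM1 and -0.81 in CM4. Over the 6 members with longer genes it was 0.04 in CM2 (range -1.01 to 0.29), -0.12 in CM1 (-0.30 to 0.07), -0.545 in CM5 and -0.77 in CM4. The Sham-KO over Sham-WT ratio was 0.68 (0.58 to 0.78) in CM2 and 0.70 (0.64 to 0.76) in CM5, and the MI-KO over MI-WT ratio was 0.39 (0.30 to 0.49) and 0.33 (0.29 to 0.38).

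In CM1 the median ratio of the members with long genes was smaller in size than that of the other members. Counting took in introns, and the members span 2.19 to 100.46 kb from start to end in the GENCODE annotation of GRCm38. The 6 that exceed 20 kb are Ndufs4 (chr13:114287795-114388258), Ndufa10 (chr1:92439010-92473860), Ndufs1 (chr1:63143596-63176833), Ndufa9 (chr6:126821721-126849136), Ndufv2 (chr17:66078638-66101559) and Ndufa12 (chr10:94198720-94221443). Their median Sham-KO over Sham-WT ratio in CM1 was 0.44 (range 0.14 to 0.68), against 0.86 (0.01 to 1.03) for the other 31. Their median MI-KO over Sham-KO ratio was -0.36 (-0.82 to -0.15), against -1.04 (-1.48 to -0.27). Over all genes tested, the medians of long and short genes in the Sham ratio were -0.18 and 0.06. In the MI-KO over Sham-KO ratio they were 0.10 and -0.09. In CM4, long and short members were close, at 0.49 and 0.53 for MI-KO over MI-WT and -0.77 and -0.81 for MI-WT over Sham-WT. Over all genes tested in CM4, the medians of long and short genes were -0.22 and 0.23 for MI-KO over MI-WT, and 0.32 and -0.21 for MI-WT over Sham-WT. The 29 short members that entered thus had a median of 0.53 beside 0.23 for short genes in general, and the 30 in the second comparison -0.81 beside -0.21. Ndufs4, the longest, had 267.6 CPM in Sham-WT, 330.9 in Sham-KO, 280.4 in MI-WT and 268.1 in MI-KO in CM1. Ndufb4, a short gene at chr16:37647170-37654453, had a small Sham ratio as well, so length did not sort all members. The spans of 19 members overlap another gene, 6 of them on the same strand, and the counts of these are uncertain.

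**Figure D4:**
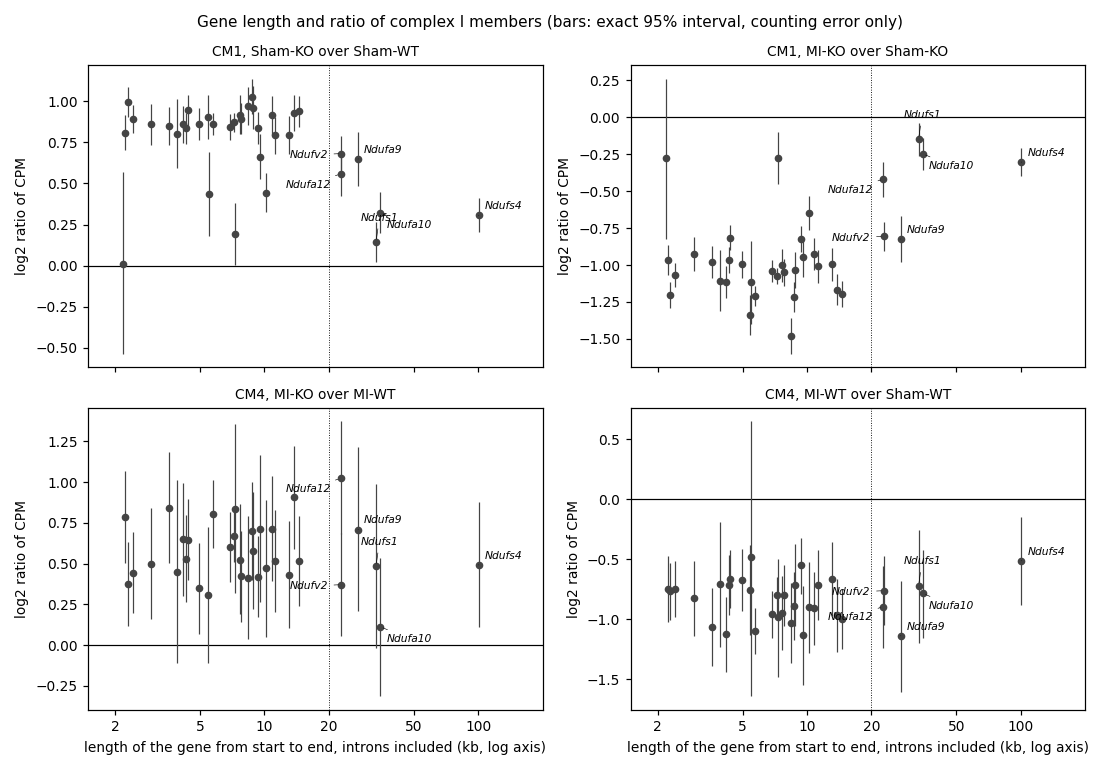
log2 ratio of CPM of 36 of the 37 members, where they entered (vertical axis) against the length of its gene in kb, introns included (horizontal log axis), in 4 population and comparison pairs; bars are exact 95% intervals for counting error only, the dotted line marks 20 kb and the 6 longer members are named. In CM1 (upper panels) the 6 long genes have a median ratio of 0.44 in Sham and -0.36 in the KO pair, nearer to 0 than most short ones, and in CM4 (lower panels) they lie among the others.

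Other genes of oxidative phosphorylation had similar values. In CM1, the median Sham-KO over Sham-WT ratio was 0.83 over 9 nuclear genes of complex III (9 past the fold upward), 0.84 over 15 of complex IV (14 past it) and 0.80 over 16 of complex V (14 past it), and 0.41 over the 4 of complex II, where 0 reached it. The share of all 12916 genes past the fold upward was 7.85%. In CM4, the median MI-KO over MI-WT ratio was 0.48, 0.54, 0.56 and 0.57 for complexes II, III, IV and V, and the median MI-WT over Sham-WT ratio was -0.86, -0.81, -0.94 and -0.86. Complex I, at 0.53 and -0.80, was near these values.

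The 7 subunits of complex I in the mitochondrial genome did not follow the nuclear ones throughout. In CM4 their median MI-KO over MI-WT ratio was -0.23, with 0 of 7 above 0, whereas all 35 nuclear members were above 0. In CM1 it was -0.14 for MI-KO over MI-WT, with 1 of 7 above 0, and 0.43 for Sham-KO over Sham-WT, with 7 of 7 above 0. Their transcripts are made inside mitochondria, outside the nucleus. mt-Nd4 had 4960 CPM in Sham-WT, 6680 in Sham-KO, 4919 in MI-WT and 4742 in MI-KO in CM1, the highest again in Sham-KO.

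The 16 assembly factors, which build the complex without being part of it, had medians of 0.04 for Sham-KO over Sham-WT and 0.01 for MI-KO over MI-WT in CM1, and 1 and 0 of them were past the fold upward. Ndufaf8 was that 1 (0.63). The shares of all genes past the fold upward were 7.85% and 4.54%. In CM4 only 9 had enough UMIs for MI-KO over MI-WT. Of these, 4 were past the fold upward, against 12.3% of 5686 genes, and 2 downward, against 19.3%. The 11 listed regulators, with Nfe2l1 itself included, had medians of -0.14 and -0.05 in CM1, where 0 were past the fold in either direction. The shares of all genes past the fold downward were 6.64% and 3.99% there. Among them, Nrf1 (nuclear respiratory factor 1) had 83.6, 83.7, 84.8 and 82.1 CPM in Sham-WT, Sham-KO, MI-WT and MI-KO in CM1. Ppargc1a, a coactivator of mitochondrial genes, had 635.7, 587.0, 508.6 and 497.4 CPM, with MI below Sham in both genotypes. In CM4 regulators differed more. In the same order Esrrg had 371.7, 680.4, 560.1 and 483.0 CPM there, and Ppargc1b 182.1, 272.4, 263.4 and 174.6. Both were higher in KO in Sham and lower in KO after MI. Nrf1 had 50.6, 56.1, 61.7 and 72.7 CPM in CM4, higher in KO in both pairs, on 20 to 41 UMIs.

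**Figure D5:**
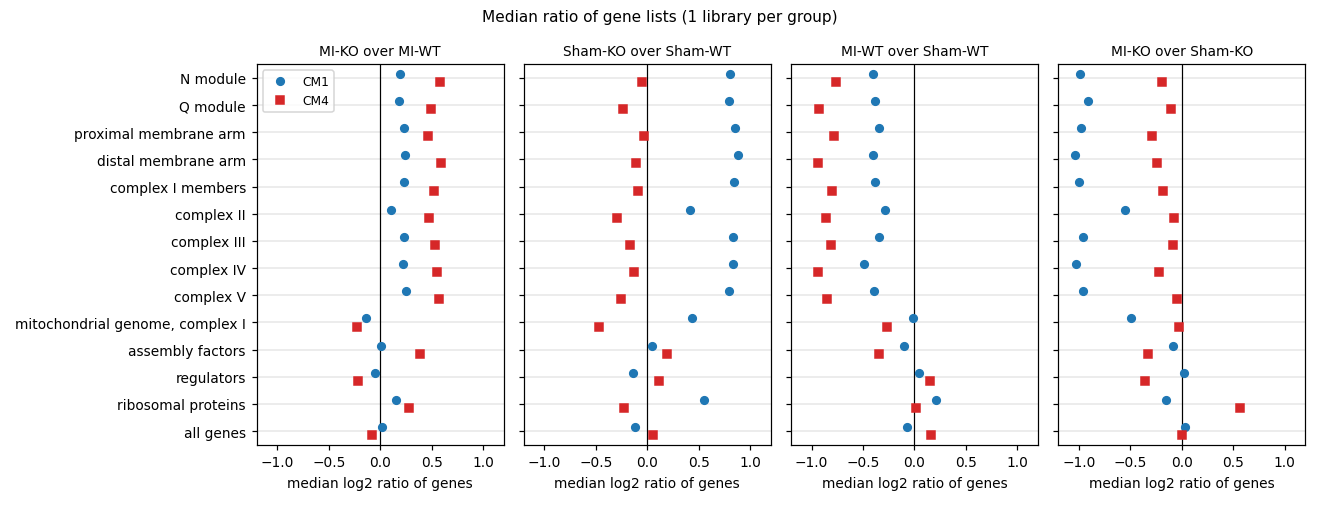
Median log2 ratio over the genes of each list that entered (horizontal axis) for complex I, its modules and other lists (rows), in 4 comparisons (panels), for CM1 (blue circles) and CM4 (red squares); 1 library per group, with no error over replicates. The modules of complex I lie with complexes III, IV and V in each panel, and assembly factors and regulators lie nearer to 0 in the Sham comparison of genotypes in CM1, at 0.04 and -0.14.

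Other RNA moved beside these values. Ribosomal protein genes, short genes with abundant cytosolic mRNA, had a median Sham-KO over Sham-WT ratio of 0.55 in CM1. Of these, 26 of 81 were past the fold upward, against 7.85% of 12916 genes. For MI-KO over MI-WT in CM4 their median was 0.29, with 1 of 80 past the fold upward, against 12.3% of 5686 genes. The 5 long RNAs kept in the nucleus (Malat1, Neat1, Meg3, Xist and Kcnq1ot1) summed to 24545 CPM in Sham-WT, 55006 in Sham-KO, 60520 in MI-WT and 40032 in MI-KO in CM4, the reverse order of MI-WT and MI-KO to that of complex I. Markers of other cell types are given by library in the order Sham-WT, Sham-KO, MI-WT and MI-KO.

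The 5 red blood cell markers (hemoglobin genes and Alas2) summed to 2545, 1891, 3829 and 2025 CPM in CM1 and to 12805, 7833, 8411 and 3538 in CM4, with none at 0. They were lower in KO than in WT in every pair. The 10 myeloid markers summed to 119.7, 90.5, 535.5 and 263.8 CPM in CM1 and to 194.7, 124.6, 951.7 and 488.8 in CM4, where Adgre1 was at 0 in Sham-WT and Csf1r and Cd14 were at 0 in MI-KO. Their sum was higher after MI and lower in KO. S100a8 and S100a9 gave 1077 and 1124 of its UMIs in CM1 of MI-WT, so it is mostly theirs there. Not every marker followed the sum. In CM1, Csf1r had 33 UMIs in both WT libraries, a smaller share after MI. In CM4, C1qa had 6 UMIs in Sham-WT and 15 in Sham-KO, a larger share in KO. The 7 endothelial markers summed to 453.3, 824.2, 469.9 and 536.8 CPM in CM1, with none at 0, so that Sham-KO stood apart at the top as it did for complex I. Their Sham-KO over Sham-WT ratio was 0.86 (0.79 to 0.94), and Fabp4 gave 5258 of their 6046 UMIs in Sham-KO. In CM4 their sums were close, at 1651, 1626, 1545 and 1560 CPM, but Fabp4 gave most of these UMIs too (487, 990, 495 and 420). Each of the other endothelial markers had a smaller share of the CM4 UMIs in Sham-KO than in Sham-WT. Egfl7, for example, had 29 of 730490 UMIs against 32 of 395477. After MI some of them were higher in KO and some lower. The 7 fibroblast markers had 1047, 914.9, 895.2 and 905.3 CPM in CM1 and 2460, 1966, 2321 and 2203 in CM4, with none at 0.

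The 6 atrial cardiomyocyte markers summed to 173.7, 294.9, 1993 and 2431 CPM in CM1 and to 523.4, 509.2, 5283 and 9768 in CM4, where Sln was at 0 in Sham-WT and Nr2f1 in MI-WT. After MI they were higher in KO in CM4, as complex I was, with a ratio of 0.89 (0.81 to 0.97). Nppa, which ventricular muscle also expresses under load, gave 2935 of their 3357 UMIs in MI-KO and 2185 in MI-WT. The ratio of the sum is therefore mostly that of Nppa, and the other markers differed more. Myl7, the atrial light chain, had 209 UMIs in MI-KO and 10 in MI-WT. In the same order Myl4 had 188 and 26, Sln 10 and 1, Stard10 11 and 4, and Nr2f1 4 and 0. The 5 smooth muscle and pericyte markers summed to 32.8, 44.4, 60.4 and 65.0 CPM in CM1 and to 118.8, 90.4, 161.4 and 334.6 in CM4, where Myh11 was at 0 in both Sham libraries. Their CM4 ratio for MI-KO over MI-WT was 1.05 (0.61 to 1.51). The part of these cell types in the complex I ratios was not tested.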

How the data were processed

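Single-nucleus libraries of MI-WT, MI-KO, Sham-WT and Sham-KO hearts, 1 each, were analysed, with groups taken from the sample titles. The authors deposited UMI counts per gene and nucleus with no normalization; the methods state that Cell Ranger aligned the reads to an mm10/GRCm38 pre-mRNA reference, so that introns were counted, Scrublet doublets and nuclei outside 200 to 2500 detected genes were removed, and populations were set after Seurat 3 integration and label transfer. The labels and the methods name different versions of the 3′ kit. The authors also deposited, per nucleus, its library, population, transferred label, UMI total as a count and percent of UMIs from the mitochondrial genome; 11 other columns were not used. The highest mitochondrial percent of a nucleus was 19.84% in Sham-WT, 14.99% in Sham-KO, 17.92% in MI-WT and 12.99% in MI-KO. No doublet caller was run again. UMIs were summed per library and population and divided by the sum over all genes to give CPM. Ratios carry exact conditional binomial 95% intervals and levels exact Poisson ones, both tested on simulated counts. Intervals treat UMIs as independent molecules. No test was run, since no group had more than 1 library. The text names, in each comparison, the 3 highest and 3 lowest members with 50 or more UMIs, the 3 members with the most UMIs, the core subunits, and members outside the complex or with a paralog, and may name any other member with its values. The values of 1 member are not reported here singly, although counts, medians and sums include it. The members, lists and this rule were chosen with earlier results of these data known. Alternatives were other scalings (TMM in edgeR, median of ratios), thinning to 1000 UMIs, equal weight per nucleus, agreeing transferred labels, leaving out the 10 nuclei with the most complex I UMIs and other folds and minimums. Bands of depth and mitochondrial share were added after the data were seen. Gene positions came from GENCODE and upstream sequences from RefSeq (GRCm38.p6). Python 3.11.15, numpy 2.4.6, scipy 1.17.1, pandas 2.3.3 and edgeR 4.0.16 in R 4.3.3 were used.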

Additional observations from a re-analysis of the deposited data

Results flagged for a closer look

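In CM4 the genotype ratio of complex I had opposite signs after the 2 surgeries: the summed level was 0.58 for MI-KO over MI-WT and -0.09 for Sham-KO over Sham-WT, a difference of 0.67 on the log2 scale. With 1 library per group this difference was not tested. It was not seen at every depth: in CM4 nuclei of 1000 to 1500 UMIs the ratios were 0.08 (-0.09 to 0.24) after MI and 0.06 (-0.03 to 0.15) after Sham, of the same sign and overlapping, whereas in nuclei of 1500 to 2500 UMIs they were 0.39 (0.30 to 0.49) and -0.06 (-0.12 to -0.01). For the members named next, both intervals excluded 0 and lay on opposite sides of it. The difference of the MI ratio minus the Sham ratio was 1.53 for Ndufb4 (0.84 and -0.70), 1.41 for Ndufa12 (1.02 and -0.38), 0.89 for Ndufb8 (0.60 and -0.29), 0.81 for Ndufa3 (0.50 and -0.31), 0.81 for Ndufs7 (0.53 and -0.28) and 0.77 for Ndufv3 (0.52 and -0.25). None of these differences was tested either. The libraries behind them differed in depth, with median CM4 nuclei of 1716 UMIs in Sham-WT, 1859 in Sham-KO, 1853 in MI-WT and 2394 in MI-KO, and in the mitochondrial share, at 14.6%, 11.6%, 10.8% and 9.47%. The highest share in a CM4 nucleus also differed, at 19.84%, 14.98%, 17.81% and 12.99% in the same order. At 6 to 9% mitochondrial UMIs the ratios of the summed level were 0.67 after MI and -0.11 after Sham, and at 9 to 12% they were 0.47 and -0.033. Of the 192 CM4 nuclei of Sham-WT, only 11 lay in the first of these bands and 27 in the second.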

How the results depend on the processing

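In each of the 8 comparisons of the summed complex I level, the sign was the same under all 10 alternatives. A further band of shallow CM4 nuclei (1000 to 1500 UMIs) gave 0.08 for MI-KO over MI-WT, 0.06 for Sham-KO over Sham-WT, which has the opposite sign to the value over all nuclei, -0.49 for MI-WT over Sham-WT and -0.47 for MI-KO over Sham-KO. Values that left the counting interval are given here, and the cause was not tested except where a scaling or a choice of nuclei is the whole change. In CM1, Sham-KO over Sham-WT (0.81) was 0.85 without mitochondrial UMIs in the total, 0.90 with TMM, 0.90 with median-of-ratios factors, 0.83 without the 10 nuclei with the most complex I UMIs, 0.67 in nuclei of 5 to 7% mitochondrial UMIs and 0.61 in nuclei of 2500 to 3500 UMIs. MI-KO over Sham-KO (-0.97) was -1.02, -1.01, -1.01, -0.99, -0.75 and -0.66 in the same order. MI-WT over Sham-WT (-0.37) was -0.31 with TMM, -0.30 with median-of-ratios factors, -0.29 in the mitochondrial band and -0.28 in the depth band. MI-KO over MI-WT (0.21) was 0.19 with median-of-ratios factors, and it reached 0.47 in nuclei of 9 to 12% mitochondrial UMIs. In CM4, MI-KO over MI-WT (0.58) was 0.64 with TMM and with median-of-ratios factors, 0.49 after thinning, 0.44 with equal weight per nucleus, 0.47 where transferred labels agreed, 0.47 in the mitochondrial band (9 to 12%) and 0.39 in the depth band (1500 to 2500 UMIs). MI-WT over Sham-WT (-0.84) was -0.90 without mitochondrial UMIs, -0.99 with TMM, -0.999 with median-of-ratios factors, -0.76 after thinning, -0.76 with equal weight, -0.75 with agreeing labels and -0.64 in the mitochondrial band. Sham-KO over Sham-WT (-0.09) was -0.13, -0.15 and -0.15 under those scalings, -0.039 after thinning, -0.042 with equal weight, -0.027 without the 10 nuclei and -0.033 in the mitochondrial band. That band held 27 of the 192 CM4 nuclei of Sham-WT. MI-KO over Sham-KO (-0.18) was -0.23 after thinning, -0.27 with equal weight, -0.26 without the 10 nuclei and -0.36 in the depth band. Of 480 alternative values of the members at either end of each comparison, 444 stayed within their counting intervals, 36 left them and 0 changed sign among those past the fold.

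The counts of members past the fold moved most with the fold. At a fold of 2 they were 1 in place of 29 (CM1, Sham-KO over Sham-WT), 18 in place of 31 (CM1, MI-KO over Sham-KO), 1 in place of 14 (CM4, MI-KO over MI-WT) and 7 in place of 33 (CM4, MI-WT over Sham-WT). At the smaller of the alternative folds they were 25 in place of 2 (CM1, MI-WT over Sham-WT), 33 in place of 14 and 9 in place of 2 (CM4, MI-KO over Sham-KO downward). In the depth band, 9 members in place of 14 were past the fold for MI-KO over MI-WT in CM4 and 10 in place of 2 were past it downward for MI-KO over Sham-KO. In CM1, MI-WT over Sham-WT had 5 downward in place of 2 after thinning and in the depth band, and 1 with TMM or relative to all genes. The other counts that moved by over 1.5 times were all of 4 or fewer. For the counts at these other settings the share of all genes was not computed, so they have no background beside them. No paired analysis was possible because each group had 1 library. No library could be left out for the same reason. Members with few UMIs in CM4, Ndufs5 and Ndufa4l2, had wide intervals. Those of Ndufs5 for Sham-KO over Sham-WT (0.31 to 1.96) and MI-KO over Sham-KO (-3.89 to -1.196) still excluded 0.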
